A study of Mus musculus with 9 samples.

Results

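The 10 genes Timp4, Btnl9, Rgcc, Car4, Cd300lg, Aqp1, Aqp7, Sparcl1, Cd93 and Clec14a are listed here as markers of capillary endothelium in adipose tissue. They were taken by symbol from the deposited expression table, and all 10 were among its 11802 genes. RNA on tagged ribosomes was captured from endothelium of mouse white adipose tissue, in samples that differ by label in endothelial Mfn2, the gene of mitofusin 2, a protein of the outer mitochondrial membrane that drives mitochondrial fusion. The libraries labelled KO were 5 samples of the strain Pdgfb-iCreERT2:Mfn2iΔEC:Rpl22HA, in which Mfn2 is labelled absent from endothelial cells, and those labelled WT were 4 samples of the strain Pdgfb-iCreERT2:Rpl22HA, in which it is labelled present. Both groups carried the Cre driver and the ribosome tag Rpl22HA, an HA-tagged copy of a ribosomal protein that Cre switches on, and the Cre is expressed from Pdgfb, which is active in endothelial cells. Each capture used 50 to 100 mg of tissue, while the sources used here do not give the age or sex of the mice or the schedule of Cre induction. No label ties a library to an animal, and the p-values measure the spread between libraries.

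Capillaries are the thinnest vessels and carry the exchange of water, gases, glucose and lipids between blood and tissue. In adipose tissue their endothelial cells take up and pass on fatty acids. They make surface receptors, channels, secreted matrix proteins and enzymes held on the luminal face. The 10 genes include members of these classes of protein, and whether each of them is confined to capillary endothelium was not tested. Cd300lg, Cd93 and Clec14a encode receptors and Btnl9 a butyrophilin-like membrane protein. Aqp1 and Aqp7 encode channels, Car4 a surface enzyme, Timp4 and Sparcl1 secreted proteins and Rgcc an intracellular regulator of the cell cycle.

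Values are CPM, reads of a gene scaled to a common library total. The libraries held between 1615968 and 3829356 listed reads in KO and between 1034753 and 2501048 in WT. The ribosomal RNAs of the mitochondrial genome, mt-Rnr1 and mt-Rnr2, took 12.8% to 25.2% of reads in KO, against 64.8%, 47.5%, 48.3% and 13.9% in WT replicates 1 to 4, which leaves less of the common total to all other genes in 3 of the 4 WT libraries. The median log2(CPM + 1) of a library was 4.15 to 4.64 in KO and 2.87 to 4.10 in WT. Each change is therefore given on 3 scales, which are the deposited CPM, values relative to the library median, and values relative to the mean of 23 endothelial genes that are not among the 10. Fold changes are in log2(CPM + 1), KO over WT, which understates the change of low genes, and a call is an adjusted p under 0.05 in limma with Benjamini-Hochberg adjustment over all 11802 genes. Mfn2 itself did not separate the labels, with 35.4 to 130 CPM in the libraries labelled KO and 20.3 to 55.8 CPM in those labelled WT (relative log2 fold change −0.16, limma adjusted p = 0.898), so directions rest on the labels.

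All 10 capillary genes had a higher mean CPM in KO than in WT, and all 10 passed the test upwards in the deposited CPM, as did 32.0% of all genes, while 0.203% passed it downwards. Ratios of the group means ran from 2.15 for Car4 to 5.90 for Timp4, and the median log2 fold change of the 10 was 1.76, against 1.10 over all genes. None of the 10 was called when the same CPM were rescaled without the 2 mitochondrial rRNAs (limma adjusted p = 0.0556 to 0.280), a setting in which 21 of all genes, 0.178%, were called higher. Their log2 fold changes in that setting all lay above 0, between 0.53 for Car4 and 1.92 for Timp4, with Rgcc and Clec14a at 1.53 and Btnl9 at 1.34. Relative to the library median all 10 still lay above 0, with a median of 0.79 against 0.12 over all genes, but limma called none of them, with 6 of 10 higher at an unadjusted p under 0.05, as were 707 of all genes, 5.99%. Of all genes limma called 0.0339% higher and 0.0763% lower on this scale. On recovered reads edgeR with TMM also called 0 of the 10, and it called 0.00847% of all genes higher and 0.0339% lower, with 5 of the 10 and 5.21% of all genes higher at an unadjusted p under 0.05. DESeq2 called 0 of the 10. Of the 8124 genes to which it gave an adjusted p, it called 0.357% higher and 1.38% lower. At an unadjusted p under 0.05 in DESeq2, 5 of the 10 were higher, as were 6.26% of 11775 genes. The 10 genes spread over a wide range on this scale, with Timp4, Rgcc, Clec14a and Btnl9 at 0.97 or more and Car4 and Sparcl1 at 0.19 or less. In bulk captures, more cells of a type and more RNA per cell cannot be told apart.

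**Figure D1:**
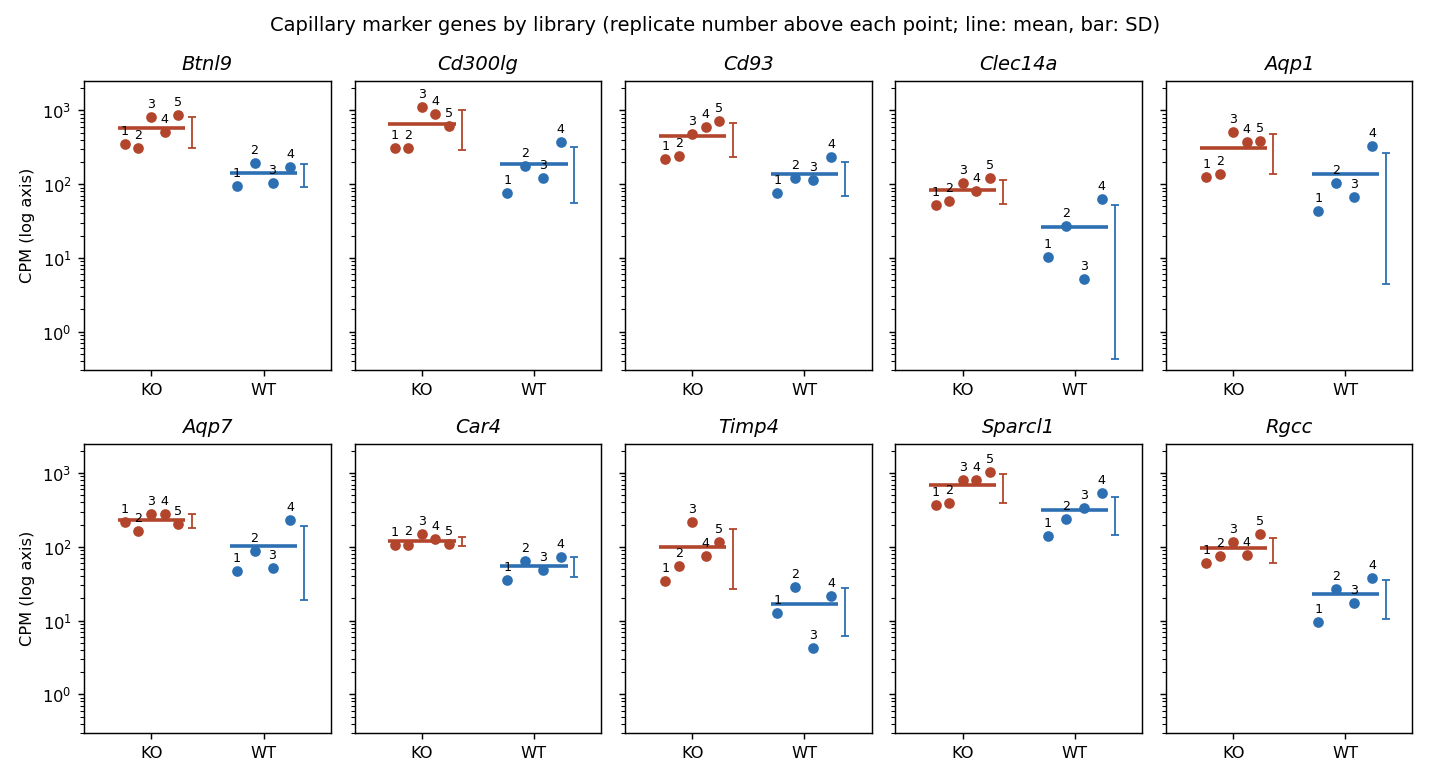
CPM of the 10 capillary genes in each library on a log axis, with KO left of WT in every panel, the replicate number above each point, the group mean as a line and the SD as a bar (n = 5 KO and 4 WT). Btnl9, Timp4, Rgcc and Car4 show no overlap between the groups, and WT replicate 4 reaches the KO range for the other 6 genes.

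Btnl9 encodes a butyrophilin-like membrane protein of the immunoglobulin superfamily (ENSMUSG00000040283; GRCm38 chromosome 11, 49165585 to 49187159, minus strand). It stood at 355, 308, 812, 504 and 865 CPM in KO replicates 1 to 5, against 94.95, 193, 103 and 172 CPM in WT replicates 1 to 4. Every KO library lay above every WT library, with KO replicates 3 and 5 highest. The mean was 569 ± 257 CPM in KO (SD, n = 5) and 141 ± 49.0 CPM in WT (SD, n = 4), a log2 fold change of 1.95 (limma SE 0.409, adjusted p = 0.00352). On the scale of the library median it was 0.97 (95% interval 0.34 to 1.60, adjusted p = 0.224).

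Cd300lg, also called nepmucin, encodes a CD300-family receptor of the endothelial surface that can bind the leukocyte adhesion molecule L-selectin (ENSMUSG00000017309; chromosome 11, 102041509 to 102055620, plus strand). It reached 310, 312, 1110, 884 and 616 CPM in KO replicates 1 to 5, against 76.1, 177, 120 and 375 CPM in WT replicates 1 to 4. WT replicate 4 lay above KO replicates 1 and 2, so the groups overlapped. Its log2 fold change was 1.84 in the deposited CPM (limma SE 0.445, adjusted p = 0.00675), and against the library median it was 0.87 (95% interval 0.14 to 1.60, adjusted p = 0.336).

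Cd93 and Clec14a encode transmembrane receptors of the same C-type lectin family, and both are known to bind the endothelial matrix protein multimerin 2. Cd93 (ENSMUSG00000027435; chromosome 2, 148436640 to 148443563, minus strand) was at 216, 242, 480, 588 and 714 CPM in KO replicates 1 to 5, against 76.5, 122, 113 and 230 CPM in WT replicates 1 to 4. Only WT replicate 4 reached the KO range, where it lay between KO replicates 1 and 2. The log2 fold change of Cd93 was 1.68 (limma SE 0.420, adjusted p = 0.00776), and against the library median it was 0.70 (95% interval 0.06 to 1.35, adjusted p = 0.381). Clec14a (ENSMUSG00000045930; chromosome 12, 58264720 to 58269290, minus strand) was at 52.2, 59.3, 102, 81.4 and 122 CPM in KO replicates 1 to 5, against 10.4, 27.3, 5.25 and 62.7 CPM in WT replicates 1 to 4. Its WT values were the most scattered of the pair and rested on few reads, 23 in WT replicate 1 and 10 in WT replicate 3. The log2 fold change of Clec14a was 2.09 (limma SE 0.498, adjusted p = 0.00673), and against the library median it was 1.11 (95% interval 0.23 to 2.00, adjusted p = 0.311). Without WT replicate 3 this value was 0.61, and without WT replicate 4 it was 1.48. Per kilobase of exon, Cd93 stood above Clec14a in every library, by 2.80 to 4.95 times in KO and 2.51 to 14.7 times in WT, and this ratio was not shown to differ between the groups (exact two-sided permutation p = 0.476 on the log2 ratio, n = 5 and 4). Mmrn2, which encodes multimerin 2, was at 236 ± 120 CPM in KO (SD, n = 5) and 81.9 ± 40.0 CPM in WT (SD, n = 4), and its change against the library median was 0.48 (limma adjusted p = 0.597).

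Both channel genes had lower fold changes than Btnl9, Cd300lg, Cd93 and Clec14a, a difference that was not tested. The groups of both channel genes overlapped through WT replicate 4. Aqp1 encodes a water channel of capillary endothelium that red cells also carry (ENSMUSG00000004655; chromosome 6, 55336432 to 55348555, plus strand). Its level was 125, 137, 506, 368 and 386 CPM in KO replicates 1 to 5, against 43.7, 103, 66.2 and 328 CPM in WT replicates 1 to 4. The CPM of Aqp1 in WT replicate 4 was above those of KO replicates 1 and 2 and above those of the other 3 WT libraries. The log2 fold change of Aqp1 was 1.39 (limma SE 0.467, adjusted p = 0.0259), or 1.96 without WT replicate 4, and against the library median it was 0.41 (95% interval −0.41 to 1.23, adjusted p = 0.732). The 5 measured red cell genes summed to 99.3 to 836 CPM in KO and 61.5 to 1038 CPM in WT, with WT replicate 4 highest, and none of them was called on either of these scales. Their part in the level of Aqp1 was not tested.

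Aqp7 encodes an aquaglyceroporin, a channel that passes glycerol as well as water and that adipocytes use to release glycerol (ENSMUSG00000028427; chromosome 4, 41033074 to 41048139, minus strand). It stood at 215, 163, 278, 279 and 203 CPM in KO replicates 1 to 5, against 46.8, 88.6, 51.5 and 228 CPM in WT replicates 1 to 4. The KO values were close together, while WT replicate 4 lay inside the KO range and the other 3 WT libraries below it. The log2 fold change of Aqp7 was 1.40 (limma SE 0.422, adjusted p = 0.0164), and against the library median it was 0.43 (95% interval −0.19 to 1.05, adjusted p = 0.602). The 19 adipocyte genes, which exclude Aqp7, summed to 4751 to 8106 CPM in KO and 3434 to 6194 CPM in WT and had a relative median of −0.39, and their part in the level of Aqp7 was not tested. Aqp7 was highest among the WT libraries in replicate 4. The adipocyte sum there was 3743 CPM, above that of WT replicate 1 and below those of WT replicates 2 and 3. Relative to the endothelial mean, that library held the highest WT value of Aqp7, 1.26, and the lowest WT mean of the adipocyte genes, −0.11. Among the KO libraries both were highest in replicate 1, at 1.21 and 1.07, and lowest in replicate 5, at 0.06 and −0.77. The ratio of Aqp1 to Aqp7 per kilobase was 0.626 to 2.04 in KO and 1.00 to 1.55 in WT (exact two-sided permutation p = 0.976 on the log2 ratio, n = 5 and 4).

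Car4 encodes carbonic anhydrase IV, an enzyme anchored on the luminal face of capillaries that interconverts carbon dioxide and bicarbonate (ENSMUSG00000000805; chromosome 11, 84957786 to 84966044, plus strand). Its level was 106, 108, 147, 128 and 111 CPM in KO replicates 1 to 5, against 36, 64.9, 48.9 and 73.2 CPM in WT replicates 1 to 4. The groups did not overlap in CPM, and the KO values lay close together. The mean was 120 ± 17.7 CPM in KO (SD, n = 5) and 55.7 ± 16.6 CPM in WT (SD, n = 4), a log2 fold change of 1.13 (limma SE 0.398, adjusted p = 0.0312). This was close to the median of all genes, and relative to the library median the change was 0.15 (95% interval −0.41 to 0.71, adjusted p = 0.865).

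Timp4 encodes a secreted inhibitor of matrix metalloproteinases (ENSMUSG00000030317; chromosome 6, 115241892 to 115252205, minus strand). It stood at 34.3, 55.0, 219, 75.0 and 115 CPM in KO replicates 1 to 5, against 12.6, 28.9, 4.20 and 21.9 CPM in WT replicates 1 to 4. Each KO value exceeded each WT value, and the extremes were KO replicate 3, with 606 reads, and WT replicate 3, with 8 reads. The mean was 99.6 ± 72.9 CPM in KO (SD, n = 5) and 16.9 ± 10.8 CPM in WT (SD, n = 4), and the log2 fold change was 2.48 (limma SE 0.505, adjusted p = 0.00312), the highest of the 10. Against the library median it was 1.50 (95% interval 0.49 to 2.51, adjusted p = 0.234), 1.16 without KO replicate 3 and 1.02 without WT replicate 3, the lowest value with any 1 library left out. Timp4 overlaps Syn2 and Gm17482 on the other strand, and neither was among the listed genes. For Sparcl1 the same holds of the antisense gene Gm26703. Sparcl1 encodes a secreted matrix protein of the SPARC family that mural cells also make (ENSMUSG00000029309; chromosome 5, 104079111 to 104113733, minus strand). Its level was 370, 391, 814, 809 and 1023 CPM in KO replicates 1 to 5, against 141, 241, 335 and 531 CPM in WT replicates 1 to 4. WT replicate 4 lay above KO replicates 1 and 2. The log2 fold change of Sparcl1 was 1.17 (limma SE 0.429, adjusted p = 0.0362), and against the library median it was 0.19 (95% interval −0.45 to 0.83, adjusted p = 0.850). The 7 measured mural genes summed to 298 to 574 CPM in KO and 116 to 242 CPM in WT. In CPM, WT replicate 4 held the lowest mural sum and the highest Sparcl1 among the WT libraries. Relative to the endothelial mean, Sparcl1 and the mean of the mural genes were both highest among the WT libraries in replicate 3, at 3.15 and −0.93. Among the KO libraries, replicate 1 held the lowest Sparcl1 on that scale, 1.99, and the highest mural mean, −0.95. The part of mural cells in the level of Sparcl1 was not tested.

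Rgcc encodes a regulator of the cell cycle that is induced by complement and restrains endothelial proliferation (ENSMUSG00000022018; chromosome 14, 79288756 to 79301645, minus strand). It was at 59.5, 75.5, 118, 77.9 and 148 CPM in KO replicates 1 to 5, against 9.45, 26.9, 17.3 and 38.0 CPM in WT replicates 1 to 4. The mean was 95.6 ± 36.1 CPM in KO (SD, n = 5) and 22.9 ± 12.3 CPM in WT (SD, n = 4), a log2 fold change of 2.10 (limma SE 0.447, adjusted p = 0.00364). Set against the library median it was 1.12 (95% interval 0.45 to 1.79, adjusted p = 0.169). Rgcc was the 1 gene of the 10 whose groups stayed apart on all 3 scales, and its values relative to the library median ran from 1.50 to 2.58 in KO and 0.52 to 1.31 in WT. The groups did not overlap, with KO higher, in 4 of the 10 genes in the deposited CPM (18.7% of all genes), in 1 on the library-median scale (2.07%) and in 1 on the endothelial scale (0.474%). With KO lower the groups were apart in 0 of the 10 (0.0254%, 1.74% and 3.46% of all genes on these scales).

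Each gene's CPM was also tested on its own. An exact two-sided permutation test over all assignments of the group labels, whose smallest possible p is 0.00794, gave p = 0.00794 for Car4, 0.0159 for Rgcc, 0.0238 for Btnl9, 0.0317 for Timp4, 0.0397 for Cd93 and for Clec14a and 0.0476 for Cd300lg. The p was 0.0556 for Aqp7, 0.0714 for Sparcl1 and 0.143 for Aqp1 in the same exact test. These p-values are not adjusted, and the CPM they compare carry the shift of all genes. At p under 0.05 in this exact test, 7 of the 10 were higher, as were 35.3% of all genes. Without WT replicate 1 it was 1 of the 10 and 13.9% of all genes, and without WT replicate 3 it was 1 of the 10 and 16.2%. With 1 library fewer there are fewer assignments of the labels and the smallest possible p is higher. These counts are therefore not on a par with the 7.

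Car4, Aqp1, Aqp7 and Sparcl1 were the 4 genes whose calls in the deposited CPM depended on single libraries or on the tool. Without WT replicate 1, and likewise without WT replicate 3, limma called the other 6 and not these 4, and it called 9.27% of all genes higher without WT replicate 1 and 15.2% without WT replicate 3. Limma without its mean-variance trend and edgeR on recovered reads with library totals each called the same 6 of 10. Of all genes limma without trend called 24.6% higher, and edgeR called 19.0% higher and 0.161% lower. With the share of mitochondrial rRNA as a covariate none of the 10 was called (limma adjusted p = 0.166 to 0.927), and 0.136% of all genes were called higher. In that fit 9 of the 10 had a log2 fold change above 0, led by Timp4 at 1.99 and Btnl9 at 1.45, with Rgcc next, and Aqp1 was at −0.14. In the deposited CPM, Timp4, Btnl9, Rgcc, Cd300lg, Cd93 and Clec14a kept their calls in all 9 fits that left out 1 library. Those fits called 9.27% to 50.1% of all genes higher and carry the shift of all genes. The share of all genes that kept a call in all 9 was not computed.

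**Figure D2:**
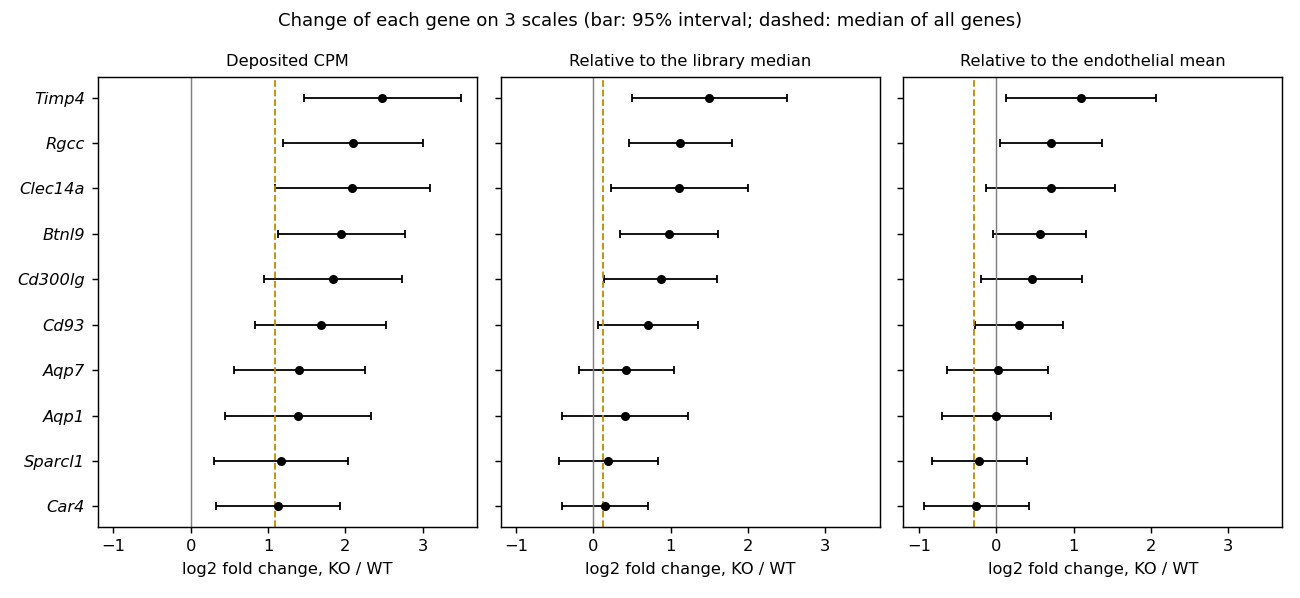
Log2 fold change of each gene, KO over WT, with its 95% interval in limma on 3 scales; the dashed line is the median of all genes on that scale. Timp4 is highest and Car4 lowest on each scale, and the intervals exclude 0 for all 10 genes in the deposited CPM, for 6 relative to the library median and for 2 relative to the endothelial mean.

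Set against other endothelial genes, the 10 lay on both sides of 0. The 23 measured endothelial genes, such as the junction genes Pecam1 and Cdh5, the receptor gene Tie1 and Rasip1, which encodes a Ras-interacting protein of vessel formation, had a mean relative level of 2.13 to 2.97 log2 units in KO and 1.86 to 2.48 in WT. KO replicates 1 and 2, at 2.13 and 2.19, lay within the WT range of this endothelial mean, and they also held the lowest KO CPM of 9 of the 10 genes, the exception being Aqp7. After this mean was subtracted from each library, limma called none of the 10, and none of all 11802 genes (lowest adjusted p = 0.0781). At an unadjusted p under 0.05, 2 of the 10 were higher and 0 lower, against 103 of all genes higher, 0.873%, and 1330 lower, 11.3%. On this scale Timp4 was at 1.09 (95% interval 0.12 to 2.06, adjusted p = 0.356), Rgcc at 0.71 (0.05 to 1.37, adjusted p = 0.374), Clec14a at 0.70 (−0.13 to 1.53, adjusted p = 0.488; 0.30 without WT replicate 3) and Btnl9 at 0.56 (−0.04 to 1.16, adjusted p = 0.441) in limma. Cd300lg and Cd93 followed at 0.46 and 0.29. The channel genes Aqp7 and Aqp1 were at 0.02 and −0.00012, and Sparcl1 and Car4 at −0.22 (−0.83 to 0.39) and −0.26 (−0.94 to 0.42). The median of the 10 was 0.38, against −0.29 over all genes and −0.05 over the 23 endothelial genes, which ran from −0.53 to 0.57. The other endothelial lists described below reached as far up as most of the 10. The 17 further capillary genes ran from −0.82 to 0.91, the 17 arterial genes from −0.62 to 0.75 and the 9 venous genes from −0.53 to 0.79.

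Rgcc was the gene that separated the groups on the endothelial scale, by a narrow margin. Relative to the endothelial mean its values ran from −0.90 to −0.08 in KO and from −1.60 to −0.91 in WT. Btnl9 ran from 1.78 to 2.29 in KO and from 0.86 to 1.89 in WT, and WT replicate 2, the highest WT library, lay above KO replicate 4 only. Timp4 ran from −1.40 to 0.41 in KO and from −2.86 to −0.81 in WT. Sparcl1 was highest in WT replicate 3, at 3.15, above every other library of both groups.

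**Figure D3:**
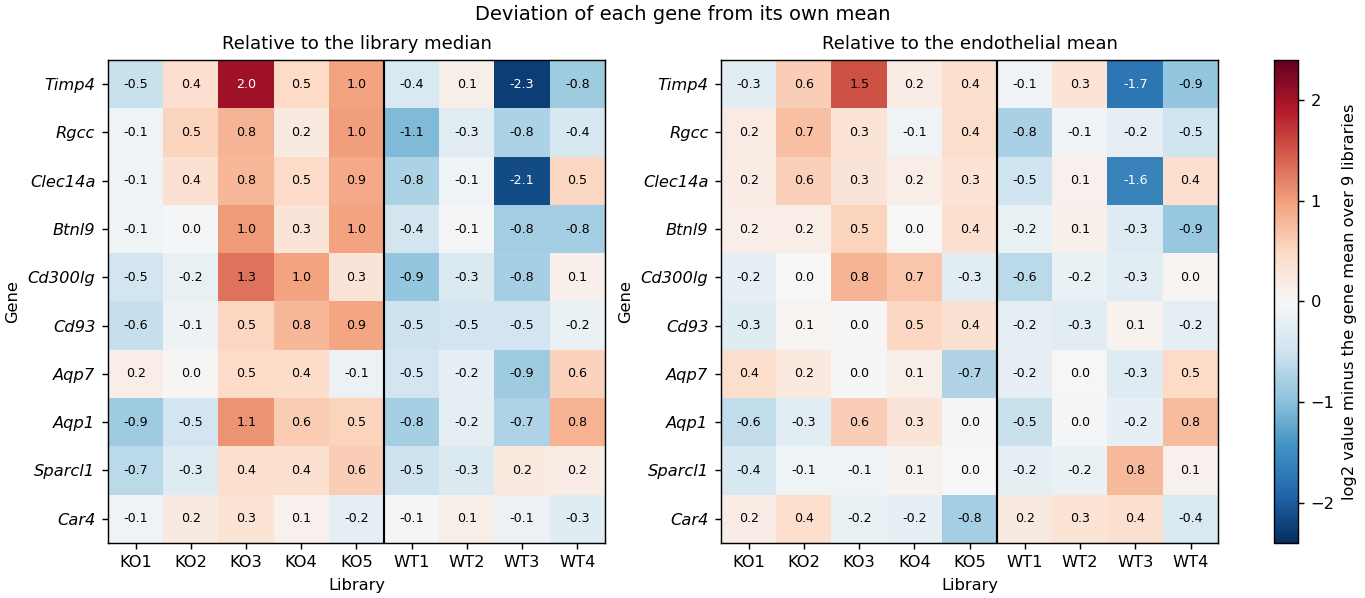
Deviation of each gene from its own mean over the 9 libraries, in log2 units, relative to the library median (left) and to the endothelial mean (right), with the 5 KO libraries left of the 4 WT libraries. Relative to the library median KO replicates 3 to 5 are above their gene means for most genes and WT replicates 1 and 3 below, and Timp4 and Clec14a are lowest in WT replicate 3.

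The levels of the 10 genes also differed from each other, and this order can be read per kilobase of exon. Sparcl1 and Cd300lg took the leading pair of places in every library, at 232 ± 98.1 and 236 ± 129 CPM per kb in KO (SD, n = 5) and 106 ± 56.6 and 68.4 ± 48.3 CPM per kb in WT (SD, n = 4). Their ranges overlapped in both groups. Clec14a and Timp4 took the last places in every library, at 18.3 ± 6.41 and 16.9 ± 12.4 CPM per kb in KO and 5.78 ± 5.68 and 2.86 ± 1.83 CPM per kb in WT. Between them, Aqp1, Rgcc, Btnl9, Aqp7, Cd93 and Car4 averaged 60.9 to 116 CPM per kb in KO and 20.3 to 51.4 CPM per kb in WT. In KO the ranges of neighbours in the order overlapped at every step but 1, that of Car4 above Clec14a, and in WT they overlapped at every step. Rgcc held places 3 to 6 in KO libraries and 5 to 8 in WT libraries, whereas Car4 held places 5 to 8 in KO and 3 to 6 in WT.

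Within the groups the 10 genes largely varied together. Over the 9 libraries, with group means removed from the relative log2 values, 41 of the 45 pairs had a Pearson correlation above 0, with a median of 0.54, against 0.01 over all pairs of the 7962 genes with a mean of at least 10 CPM. All pairs share the libraries, with their endothelial content and depth, and each correlation describes 9 points. Correlations within the other endothelial lists were not computed, so varying together is not shown to be particular to the 10. Cd300lg with Aqp1 (0.94), Sparcl1 with Cd93 (0.89) and Timp4 with Btnl9 (0.83) were the closest pairs. Car4 was the gene that moved least with the others, from −0.23 with Sparcl1 to 0.50 with Timp4.

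Among 7153 named genes with a mean of at least 10 CPM, the genes most like each of the 10 over the 9 libraries, by Pearson correlation of relative log2 values, were outside all gene lists used here except for Cdh5. Sparcl1 was closest to Cdh5, the gene of VE-cadherin (0.95). Cd93 was closest to the kinase gene Map3k3 (0.99), followed by Pdgfb (0.96), the gene whose promoter names the Cre driver, and Ehd2 (0.96), a gene of membrane caveolae. The nearest genes were Nrp1, a VEGF co-receptor, for Cd300lg (0.98), the type II TGF-beta receptor gene Tgfbr2 for Rgcc (0.96), the myosin light chain kinase gene Mylk for Btnl9 (0.98) and the survival gene Bcl2l1 for Timp4 (0.97). Rcbtb1 was closest to Clec14a (0.98), the mitochondrial ribosomal protein gene Mrps33 to Aqp7 (0.97) and the pseudogene Smt3h2-ps4 to Aqp1 (0.97). For Car4 the closest gene was Hax1, at 0.91, the lowest of these values. These values rank genes over 9 libraries and say nothing of shared control.

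Many other capillary genes were also higher in the deposited CPM. Of 19 further capillary genes 17 were measured. In the deposited CPM 12 of the 17 passed the test upwards, against 32.0% of all genes. The 17 had a median log2 fold change of 1.51, and none of them was called lower. Their highest members were Fabp4, a fatty acid carrier, at 11778 ± 4887 CPM in KO (SD, n = 5) and 4272 ± 1408 CPM in WT (SD, n = 4), Cd36, a fatty acid receptor, and Kdr, the main VEGF receptor. These 3 had changes relative to the library median of 0.45, 0.60 and 0.77 (limma adjusted p = 0.738, 0.517 and 0.326). The part of adipocytes in the levels of Fabp4 and Cd36 was not tested. Against the library median, limma called none of the 17, whose median was 0.53 and whose values ran from −0.41 (Meox2) to 1.32 (Sgk1), and relative to the endothelial mean their median was 0.12. The 10 markers, at 0.15 to 1.50 relative to the library median, overlapped with that range.

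Endothelial genes of other vessel types stood on the same side. In the deposited CPM 19 of 23 endothelial genes passed the test upwards, 9 of 17 arterial and 6 of 9 venous, against 32.0% of all genes. No gene of these lists was called lower, and the list medians relative to the library median were 0.36, 0.34 and 0.53. Of 7 lymphatic genes 3 were listed, and the defining gene Prox1 was not among them. Among the most abundant of these genes, the arterial gene Sema3g was at 390 ± 228 CPM in KO (SD, n = 5) and 84.2 ± 46.4 CPM in WT (SD, n = 4), and Vwf, the von Willebrand factor gene of veins, at 806 ± 453 CPM in KO and 364 ± 175 CPM in WT, with relative changes of 1.16 and 0.09 (limma adjusted p = 0.231 and 0.940).

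Markers of other cell types were measured in the same libraries. In the deposited CPM limma called 5 of 19 adipocyte genes, 3 of 7 mural, 2 of 12 macrophage, 0 of 9 fibroblast and 0 of 5 red cell genes higher and none lower. Of all genes it called 32.0% higher and 0.203% lower. Relative to the library median, the 9 measured fibroblast genes had a median of −0.53, the 19 adipocyte genes −0.39, the 12 macrophage genes −0.33, the 7 mural genes 0.17 and the 5 red cell genes 0.03, and limma called none of them on this scale. Fibroblast genes such as Col3a1, the most abundant of them, summed to 1683 to 12743 CPM in KO and 2706 to 8907 CPM in WT, and macrophage genes such as Cd163 to 753 to 1605 CPM in KO and 309 to 1241 CPM in WT. All 11 measured skeletal muscle genes passed the test upwards in the deposited CPM, with sums of 488 to 8809 CPM in KO and 102 to 272 CPM in WT, the highest in KO replicate 5, and their median against the library median was 2.05 with none called. None of the 8 mesothelial genes was among the listed genes. The part of these cell types in the changes of the 10 capillary genes was not tested. Without KO replicate 5 limma called 7 of the 10 in the deposited CPM, and not Car4, Aqp1 or Sparcl1, and it called 15.5% of all genes higher.

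**Figure D4:**
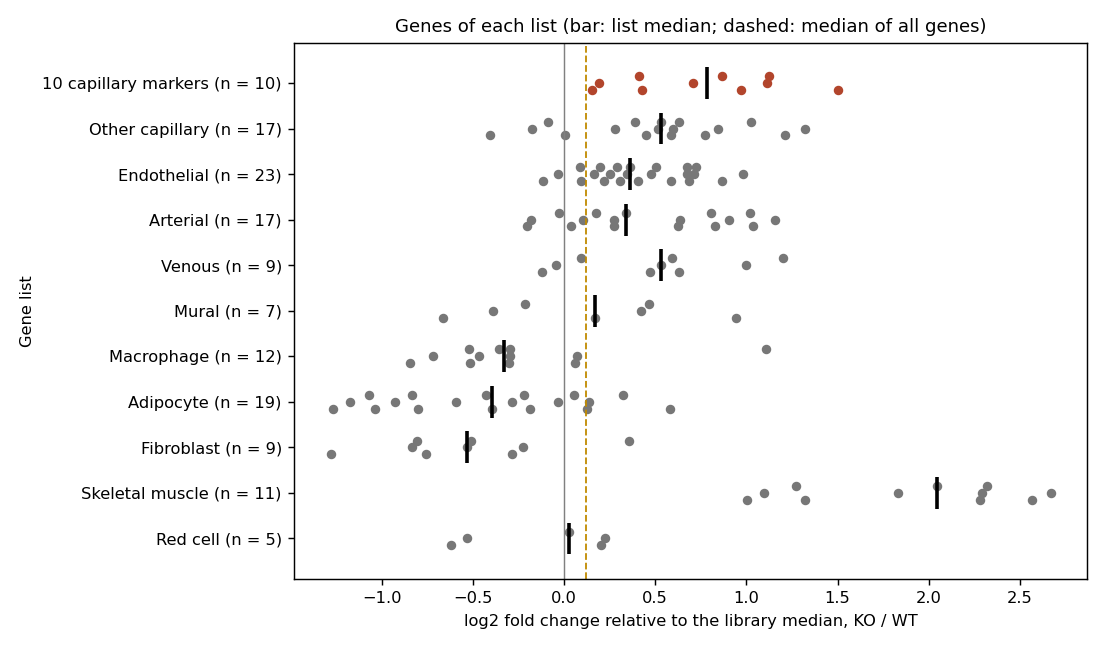
Log2 fold change of each gene relative to the library median, KO over WT, by gene list; the vertical bars are list medians and the dashed line is the median of all genes. The 10 capillary markers lie between 0.15 and 1.50 with a median of 0.79, and fibroblast, adipocyte and macrophage medians lie below 0.

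Stretches before the start sites of the genes were read for short motifs of factors with known roles in endothelium. RefSeq (GRCm38.p6) gave start sites for Timp4, Btnl9, Rgcc, Car4, Aqp1, Aqp7 and Clec14a, 7 of the 10 genes, with 8 windows of 250 bases, since Aqp7 has a pair of starts. Motifs were searched on both strands. The ETS core GGAAG was present in 6 of the 8 windows and in 64.1% of all 32851 windows of that length, and absent from both Aqp7 windows. The KLF motif CACCC was in 6 of 8 windows and in 52.0% of all, the SOX motif ACAAT in 1 of 8, that of Clec14a, and in 27.7% of all, and the forkhead motif GTAAACA in 0 of 8 and in 3.17% of all. A match is a description of letters, not a binding site, and nothing is read from these shares about the factors. The windows of Timp4 and Rgcc, which had the highest changes on the endothelial scale, and of Car4, which had the lowest, are shown with the ETS core on either strand in capitals, without bases that GENCODE M21 places inside the gene. The RefSeq start of Car4 lies before the start of its GENCODE gene.
Timp4 (chr6:115252206-115252455, minus strand): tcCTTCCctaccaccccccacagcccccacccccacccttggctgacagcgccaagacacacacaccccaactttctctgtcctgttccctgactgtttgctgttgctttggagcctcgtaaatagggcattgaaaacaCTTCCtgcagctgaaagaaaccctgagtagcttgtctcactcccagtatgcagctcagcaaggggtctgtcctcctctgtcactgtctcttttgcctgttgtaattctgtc
Rgcc (chr14:79301646-79301885, minus strand): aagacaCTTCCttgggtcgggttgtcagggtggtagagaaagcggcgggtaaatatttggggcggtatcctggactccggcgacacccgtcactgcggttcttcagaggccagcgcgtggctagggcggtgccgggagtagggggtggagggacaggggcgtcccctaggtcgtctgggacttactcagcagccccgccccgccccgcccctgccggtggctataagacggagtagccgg
Car4 (chr11:84957504-84957753, plus strand): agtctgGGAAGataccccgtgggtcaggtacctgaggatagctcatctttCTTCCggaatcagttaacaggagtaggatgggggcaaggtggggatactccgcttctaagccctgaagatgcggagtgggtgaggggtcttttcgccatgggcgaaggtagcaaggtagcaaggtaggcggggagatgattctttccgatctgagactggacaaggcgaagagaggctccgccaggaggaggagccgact
The core stood at 2 places in Timp4, 1 in Rgcc and 2 in Car4.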

How the data were processed

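Ribosome-bound RNA of adipose endothelium was sequenced in 5 KO and 4 WT libraries, prepared by template switching and tagmentation, which keep no strand, per the labels' protocols. The authors deposited 1 table of CPM for 11802 genes, per the labels. Per the submitters' processing notes, HISAT2 2.1.0 and edgeR 3.32.0 were among the tools, and GRCm38, also called mm10, was the build. The sources used here name no read counter, strand setting or annotation. Symbols, exon lengths and coordinates came from GENCODE M21 by identifier (11787 genes matched, 15 did not). The members and lists were chosen with earlier results of these data known.

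CPM were whole multiples of a step in each library, so reads were recovered, with at least 99.96% of nonzero values whole within 0.1 read. Limma 3.58.1 (R 4.3.3) with trend was fitted to log2(CPM + 1) of all genes. A minimum mean of 1 CPM removed 0 genes. The same fit was run after subtracting each library's median, or the mean of 23 endothelial genes. Alternatives were pseudocounts of 0.5 and 5, a minimum mean of 5 CPM, no filter, no trend, a replicate block, quantile normalisation, rescaling without mt-Rnr1 and mt-Rnr2, their share as a covariate, other endothelial references, each library left out, and edgeR 4.0.16 and DESeq2 1.42.0 on recovered reads. The fits were tested on simulated data in which no shift of all genes was built in, so that test does not bear on such a shift. Named genes were the 10 members, Mfn2, up to 3 genes of highest mean CPM in each list described and the 3 genes most like each member, of which the first, and for Cd93 all 3, are given. Mmrn2, Meox2, Sgk1 and Prox1 were named after their values were seen.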

Additional observations from a re-analysis of the deposited data

Results flagged for a closer look

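In each group of 4 or 5 libraries, the highest and lowest values of the 10 genes were compared with the rest of their group on 3 scales, in 60 groups of values. By chance about 1 in 20 such groups would be marked, and 2 were, both for Cd93. Relative to the library median, Cd93 in WT replicate 4 was at 3.75, against 3.41 to 3.45 in the other 3 WT libraries. Relative to the endothelial mean, Cd93 in WT replicate 3 was at 1.59, against 1.24 to 1.29 in the other 3 WT libraries. In both cases the WT values of Cd93 otherwise lay close together, and the marked value was inside the KO range of 3.35 to 4.84 or 1.22 to 2.00.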

How the results depend on the processing

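The count of 10 capillary genes called in the deposited CPM was 6 to 10 with 1 library left out and 0 after rescaling without the mitochondrial rRNAs or with their share as a covariate. It was 6 in edgeR without further scaling and in limma without trend. The number with an exact permutation p under 0.05 in CPM was 7, and 1 to 9 with 1 library left out (1 without WT replicate 1 or 3). The smallest possible p of that test is higher with 1 library fewer. Relative to the library median or the endothelial mean the count stayed at 0 in all settings run. The sign turned in the cases that follow, of which Aqp1 in the deposited CPM had been called. With the rRNA share as a covariate, Aqp1 was at −0.14 in the deposited CPM and at −0.50 relative to the library median, where Aqp7 was at −0.11 and Sparcl1 at −0.19, and relative to the endothelial mean Car4 was at 0.20 and Aqp7 at −0.24. Relative to the endothelial mean, Aqp1 was at 0.063 with a pseudocount of 5, 0.010 with the replicate block and −0.18 to 0.25 with 1 library left out, and Aqp7 at −0.073 with the endothelial median and −0.087 to 0.20 with 1 library left out. The cause was not tested.

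The replicate numbers were not shown to pair the libraries, since same-numbered libraries had correlations of −0.04 to 0.04 in their deviations from the group means. With the replicate block, where KO replicate 5 has no partner and so adds nothing to the difference, limma called 8 of the 10 in the deposited CPM, not Car4 or Sparcl1. Over all genes, higher and lower calls in the deposited CPM were 3780 and 24 in limma, 1932 and 8 with the replicate block, 21 and 4 after rescaling, 16 and 2 with the covariate, 2248 and 19 in edgeR and 1094 to 5916 and 7 to 23 with 1 library left out. Relative to the library median they were 4 and 9 in limma, 29 and 112 in DESeq2, 1 and 4 in edgeR, 8 and 30 with the block, 2 and 2 at a pseudocount of 0.5, 3 and 2 at a minimum of 5 CPM, 4 and 5 with quantile normalisation, 0 and 0 without trend or with the covariate, and 0 to 21 and 0 to 106 with 1 library left out (21 and 106 without KO replicate 1). On the endothelial scale they were 0 and 0, 1 and 5 with the block, and 0 to 4 and 0 to 358 with 1 library left out (4 and 358 without KO replicate 1). Depth limits Timp4 and Clec14a most, which had 8 and 10 reads in WT replicate 3.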
